A study of Mus musculus with 2 samples.

Results

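Genes of the meiotic chromosome axis, of meiotic DNA breaks and of telomere attachment were examined in a map of RNA recovered with BUD31, a protein of the spliceosome. The 8 genes were chosen by symbol: Sycp2, Sycp3 and Stag3 (axis and cohesin), Spo11 (breaks), Sun1 and Terb1 (telomeres), Mdc1 (damage adaptor) and Hspa2 (a chaperone of spermatocytes). Of these, 7 had at least 1 peak and Hspa2 had none, and together they held 40 of the 16331 peaks in the list. The material was germ cells taken by enzymatic digestion from the testis of mice of the C57BL/6J strain, aged 14 days after birth. An antibody against BUD31 gave 1 library, and 1 input library was prepared from 10% of the total RNA of cells of the same strain and age. No genotype, treatment with an agent or number of mice is given in the sources used here.

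The values are intervals of the mm10 genome, each with a gene and an annotation class, that the authors called from these libraries. No read count, fold, score or strand stands beside an interval, so depth is unknown, and a gene can be described only by its number of peaks, their widths, classes and places. Each group has 1 library, so there is no replicate check, no p-value and no comparison of conditions. The peaks carry running numbers up to 65288, and 48957 of these numbers have no row, for a reason that no source used here gives. Where no peak is listed, few transcripts, weak recovery and removal from the list cannot be told apart. Dazl, the 1 scored germ cell marker of 4, had no peak, and neither had the 4 somatic markers Sox9, Amh, Cyp17a1 and Acta2, so the germ cell label could not be checked from this list. The other germ cell markers lie on chromosomes 3, 7 and 13, which have no row in the list used here and were not analysed.

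In meiotic prophase each chromosome folds into loops along a protein axis built on cohesin, the ring complex that holds sister chromatids together. SPO11 cuts the DNA, the cuts are repaired against the homologous chromosome, and telomeres are tethered through the nuclear envelope to cytoskeletal motors that move chromosomes and help them pair. Unpaired chromatin, above all that of the sex chromosomes in males, gathers DNA damage proteins and is silenced. Spliceosomes act on nascent RNA, whose introns are still present, and BUD31 belongs to the spliceosome that is activated for catalysis.

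Among all 14867 protein-coding genes on chromosomes with at least 1 peak, 18.8% had a peak, which is the background for the 7 of 8. The genes were picked with earlier results of these data known, so nothing is read from that count. The background differed widely by chromosome. It was 5.78% on chromosome 2 (Sycp2, Spo11), 39.2% on chromosome 5 (Stag3, Sun1) and 14.8% on chromosome 8 (Terb1). It was 30.4% on chromosome 10 (Sycp3), 3.02% on chromosome 17 (Mdc1) and 44.2% on chromosome 12 (Hspa2). Sycp2, Spo11 and Mdc1 lie on chromosomes where few genes had any peak, and from this too nothing is read, given how they were picked. Hspa2, without a peak, lies on the chromosome with the highest share of the 6, but is only 3.13 kb long. Of the coding genes under 5 kb on that chromosome, 8.16% had a peak.

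Introns held 33 of the 40 peaks (82.5%, Wilson 95% interval 68.1% to 91.3%), against 81.8% of all peaks. Another 4 were annotated as exon and 3 as intergenic, classes that made up 5% and 6.72% of all peaks. No peak of these genes was placed in a 5′ or 3′ UTR, and with only 40 peaks nothing is read from that. The interval covers counting error over peaks only, and peaks of the same gene are not independent. The peaks were 200 to 2200 bp wide with a median of 400 bp, while the median over the whole list was 1400 bp. The median over all peaks was 400 bp on chromosome 2 and 800 bp on chromosome 5. Of the 40 peaks, 21 were at or above the median of their own chromosome. Positions in the list fall on bins of fixed size, 200 bp on the 5 chromosomes that carry these peaks, and 13 of the 40 (32.5%, 20.1% to 48%) were a single bin wide. Single-bin peaks made up 12.9% of the whole list, but 38.4% on chromosome 2 and 20.6% on chromosome 5, where most of the 40 lie, and the part of the chromosome in the narrow widths was not tested.

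**Figure D1:**
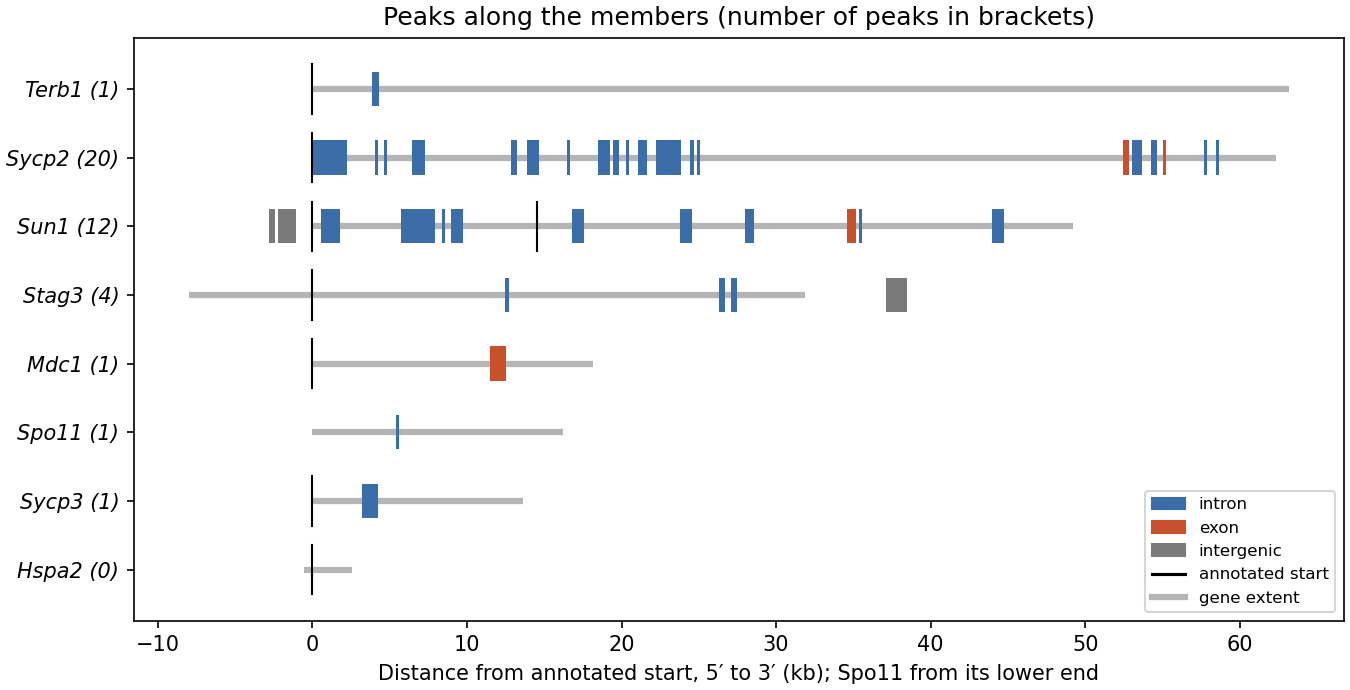
Each row is a gene, drawn 5′ to 3′ in kb from its annotated start (black line; Spo11 from its lower end), with the gene extent in grey and peaks as boxes coloured by class. Sycp2 has 20 peaks in groups at its 5′ and 3′ ends with a gap of 27.4 kb between them, Sun1 has 12 spread over its length, and Hspa2 has none.

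Sycp2 encodes a protein of the chromosome axis that forms fibres with SYCP3 and anchors the synaptonemal complex. It spans 62.5 kb of chromosome 2, from 178345295 to 178407776 on the reverse strand. Its 20 peaks covered 10800 bp, or 17.3% of the gene. Counted as listed, no other coding gene of chromosome 2 had as many: Mllt10 followed with 16 over a longer extent of 157231 bp, then Raly and Strbp with 15 each. This order rests on how finely the list splits its intervals. With intervals within 1 kb of each other merged, Sycp2 had 8, behind Mllt10 with 15, Raly with 10 and Strbp with 9, and level with Rbm39. By share of length covered, 11 of the 103 coding genes with a peak on that chromosome stood above it, and the median there was 2.42%. Its 20 peaks were 5.45% of all peaks on chromosome 2. The nearest peak of another gene lay 1.62 Mb above (Lsm14b) and 4.05 Mb below (Gnas). Peaks were sparse on this chromosome, where 5.78% of coding genes had one, and Spo11 had a gap of 4.67 Mb on 1 side. Nothing is read from these distances.

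The peaks of Sycp2 fell into 3 groups when intervals more than 5 kb apart were separated. Nearest the start, 4 peaks covered 47.2% of a stretch of 7.2 kb. The widest of them, 2200 bp at 178405401 to 178407600, began 58 bp downstream of the annotated start. In the next group 10 peaks covered 44.3% of 12.2 kb, among them an intron peak of 1600 bp at 178383801 to 178385400. Between 25057 and 52458 bp from the start no peak was listed, and this gap of 27.4 kb contains a pseudogene, Gm18662, at 178361039 to 178362115. Near the 3′ end 6 peaks of 200 to 600 bp covered 32.3% of 6.2 kb. By the centre of each peak, 14 of the 20 lay between 2.04% and 40.1% of the way along the gene and 6 between 84.5% and 93.9%, with none in the middle.

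Both exon peaks of Sycp2, of 200 bp at 178352401 to 178352600 and of 400 bp at 178354801 to 178355200, were named for a noncoding transcript model, XR_001783047.1. The coding transcript NM_177191.3 was the one named for 17 of the 18 intron peaks, including those on either side of these exon peaks. Over the whole list, 109 of 637 exon peaks of coding genes (17.1%) were likewise named for a noncoding transcript. The running numbers of the Sycp2 peaks span 25, of which 20 are in the list, and 3 of the 5 missing ones fall in the gap of 27.4 kb. What took numbers out of the list is not given.

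The sequence around the start of Sycp2 and both annotated starts of Sun1 is shown because the first intron peak of each gene lay within 1 kb of a start. The sequences are from RefSeq on GRCm38.p6, the assembly also called mm10, and run from 100 bases before the start to 25 after it. Capitals mark the 25 bases after the start. They lie at chr2:178407634-178407758 on the reverse strand, and at chr5:139200537-139200661 and chr5:139215058-139215182 on the forward strand.
Sycp2: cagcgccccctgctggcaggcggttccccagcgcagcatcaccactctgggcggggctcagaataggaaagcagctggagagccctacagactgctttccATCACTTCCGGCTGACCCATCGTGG
Sun1, first start: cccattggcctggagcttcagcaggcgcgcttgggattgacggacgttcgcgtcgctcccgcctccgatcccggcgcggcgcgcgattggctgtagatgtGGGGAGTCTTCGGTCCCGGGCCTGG
Sun1, second start: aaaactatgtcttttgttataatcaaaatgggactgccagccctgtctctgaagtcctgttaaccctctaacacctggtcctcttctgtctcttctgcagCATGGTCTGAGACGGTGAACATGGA

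Windows of 300 bases around the first start were 60.7% G and C in Sycp2 and 71.3% in Sun1, against 45.3% at the second start of Sun1 and a median of 52.7% over 32851 windows. The letters just before the second start of Sun1 end in AG, and 17 of the 20 bases before the final cag are C or T. A pyrimidine run followed by AG is what stands before an exon at a 3′ splice site. Only 6.07% of all windows have AG at that place and 0.374% have it after a run with at least 17 pyrimidines. Whether the start is used in these cells cannot be read from the peak list. None of the 6 genes with both a peak and a promoter window had a peak over its window, and the Sycp2 peak missed it by 8 bp. Of 2229 coding genes with a peak and a start window, 26.3% had a peak within 1 kb of a start, with a median distance of 3.86 kb. On chromosome 2 the share was 17.9% of 84 genes and on chromosome 5 it was 24.4% of 439. Among the members the nearest peak began 58 bp from the start in Sycp2, 564 bp in Sun1, 3214 bp in Sycp3 and 3887 bp in Terb1. In Mdc1 and Stag3 it lay 11503 and 12492 bp away.

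Sycp3, which encodes the other fibre protein of the axis, had 1 intron peak of 1000 bp, or 7.33% of its 13.7 kb. The peak lies at 88462801 to 88463800 on chromosome 10, 27.2% of the way along the gene, and its width equals the median of that chromosome, 1000 bp. The gene's last 3724 bp overlap Chpt1, a phospholipid enzyme gene, but the peak ends 5.71 kb before the overlap. The next peak, of 800 bp, belongs to a Chpt1 intron 2.36 kb beyond the end of Sycp3. The partner genes of the axis fibre therefore differed in the list, with 20 peaks at 3.2 per 10 kb in Sycp2 and 1 peak at 0.733 per 10 kb in Sycp3. They lie on different chromosomes with different backgrounds, and the difference has no test.

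Stag3 encodes a cohesin subunit made only in meiosis. It had 4 peaks: 3 in introns, of 200, 400 and 400 bp, and 1 intergenic peak of 1400 bp at 138317601 to 138319000 on chromosome 5. The intergenic peak lies 5203 bp past the end of the gene, so only 1000 bp, or 2.51% of 39.9 kb, was covered. Most coding genes with a peak on chromosome 5 were covered more: 420 of 497 stood above Stag3, and the median was 10.1%. The annotated extent begins at 138272514, upstream of the start at 138280509, and takes in the whole of Gpc2, a glypican gene. Another 2 peaks, of 600 and 200 bp, lie in that stretch and are named for Gpc2. Without strand the RNA of the overlapping genes cannot be separated there. Counted with them the covered share was 4.51%. From the first to the last peak of Stag3 the running numbers span 13, and 9 of them are not in the list.

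Spo11 encodes the enzyme that makes the meiotic breaks. Its only peak was a single bin of 200 bp in an intron, at 172982801 to 172983000 on chromosome 2, and covered 1.23% of 16.2 kb. Of 573 other coding genes on that chromosome with 0.5 to 2 times its length, 35 (6.11%) had a peak. A peak 17.8 kb above it, in an intron of Rae1, was also 200 bp wide, while on the other side none was listed for 4.67 Mb. The lncRNA gene Gm52538 overlaps 1742 bp of Spo11, and the peak lies 3.68 kb from it.

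Sun1 encodes a protein of the inner nuclear membrane that binds telomeres inside and the cytoskeletal linker outside. It runs forward over 49.3 kb of chromosome 5, from 139200564 to 139249839. Its 12 peaks, 9 in introns, 1 in an exon and 2 intergenic, were 200 to 2200 bp wide with a median of 800 bp. The 10 inside the gene covered 8200 bp, or 16.6%, above the chromosome's median of 10.1%. By number of peaks 25 coding genes of chromosome 5 stood above it and by covered share 159 of 497 did. Among 450 other genes of 0.5 to 2 times its length there, 236 (52.4%) had a peak and the most in any of them was 24.

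Sun1 peaks began before the gene. The intergenic pair, 400 bp at 139197801 to 139198200 and 1200 bp at 139198401 to 139199600, ended 2363 and 963 bp short of its extent. The list names a Sun1 transcript model for them, XM_017321156.1, and the nearest peak of the upstream neighbour, in the 3′ UTR of Dnaaf5, lies 12.8 kb from Sun1. Downstream of the first start an intron peak of 1200 bp followed after 564 bp, and the widest, 2200 bp, ran from 139206401 to 139208600. The 7 intron peaks beyond it were 200 to 800 bp wide. The exon peak, 600 bp at 139235201 to 139235800, stood 70.9% of the way along, and an intron peak 200 bp after it was a single bin. The last peak, 800 bp, lay at 90.2% of the length. Peaks were thus spread along Sun1, where the longest gap was 8.4 kb, against 27.4 kb in Sycp2. Every peak of Sun1 was named for a predicted transcript model (XM), and none for a curated one. This was not particular to Sun1: it also held for the only peak of Spo11, Terb1 and Mdc1, and for 3 of the 4 peaks of Stag3. The running numbers of its peaks span 33, and 21 of these are not in the list.

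Terb1 encodes part of the complex that links telomeres to the nuclear envelope, where SUN1 sits. At 63.2 kb it is the longest of the 8, and it had 1 peak, of 400 bp in an intron at 104505601 to 104506000 on chromosome 8. This covered 0.633% of the gene, the lowest share among the 7 with a peak. The peak lies 3887 bp downstream of the start. A small nuclear RNA gene of 107 bp, Gm22148, sits in the same part of the gene, 1.9 kb from the peak and not under it. Of 252 other coding genes of similar length on chromosome 8, 70 (27.8%) had a peak and none had more than 4. Sun1 and Terb1 therefore had 12 peaks against 1, at 2.44 and 0.158 peaks per 10 kb, with no test and on chromosomes of unequal background.

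Mdc1 encodes the adaptor that binds phosphorylated histone H2AX and spreads the damage signal along unpaired chromatin. Its only peak, 1000 bp at 35853001 to 35854000 on chromosome 17, was annotated as exon, and among the members with 1 peak this was the only one outside introns. It covered 5.5% of 18.2 kb, beside a chromosome median of 5.04%, and lay 66.1% of the way along the gene. It was wider than that chromosome's median peak of 600 bp. The nearest peaks of other genes lay 323 and 410 kb away, in Cchcr1 and Trim39. The list gives a single class to each peak, so the 1000 bp may also include intron.

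**Figure D2:**
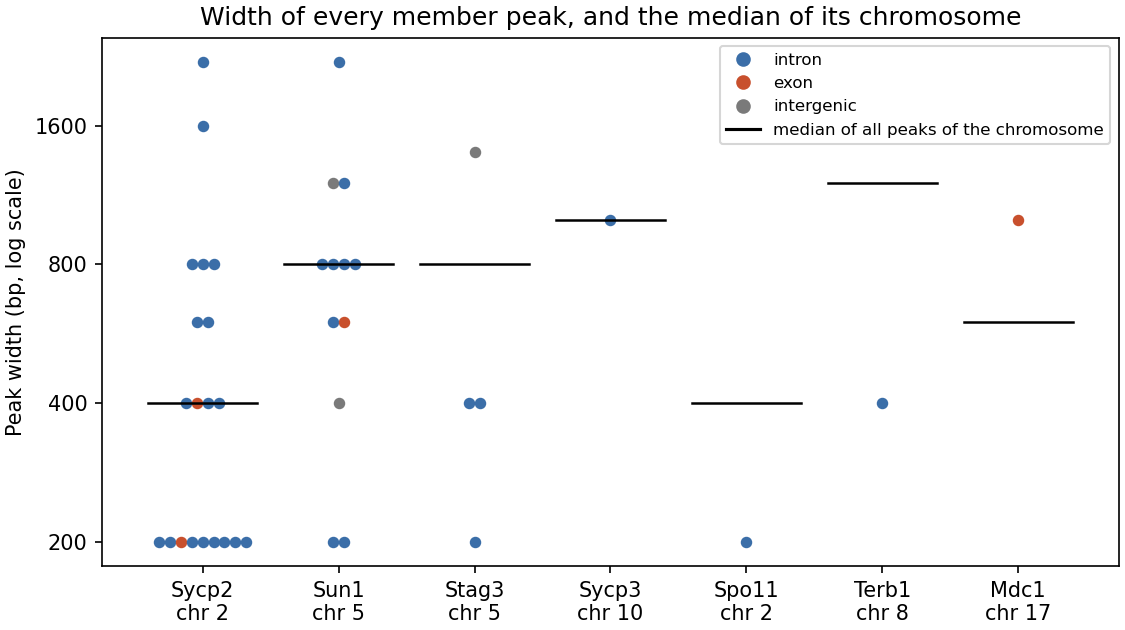
Points are the widths of the 40 peaks in bp on a log scale, coloured by class, and lines mark the median width over all peaks of the gene's chromosome. Widths fall on whole bins of 200 bp; 9 of the Sycp2 peaks are 1 bin wide, and the widest peaks of Sycp2 and Sun1 are 2200 bp.

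Hspa2 encodes a testis chaperone that the cell cycle kinase CDK1 needs at the end of meiotic prophase, and it is present along the synaptonemal complex. The list has no row for it, and no peak of any gene overlaps its 3127 bp at 76403812 to 76406938 on chromosome 12. The closest peaks are 11.4 kb below, 410 bp in an intron of the lncRNA gene 4930426I24Rik, and 11.7 kb above, 9020 bp in an intron of Ppp1r36. The lncRNA gene overlaps the first 183 bp of Hspa2. Short genes of this chromosome seldom had a peak. Of 98 coding genes under 5 kb, 8 did (8.16%, Wilson 95% interval 4.19% to 15.3%), against 64 of 201 from 5 to 20 kb (31.8%) and 170 of 280 from 20 to 100 kb (60.7%). Its nearest neighbours in length on the chromosome, Gpr135 and Insm2, had none either. With depth unknown, no limit on its recovery can be set from the missing row.

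Neighbours in length on the same chromosome gave the same kind of setting for the others. Gnas and Potegl, both 62.4 kb, had 5 and 0 peaks beside the 20 of Sycp2. Zcchc4 and Pisd, both 49.3 kb, had 3 each beside the 12 of Sun1. For Stag3 the neighbours Pptc7 and Iqce, at 39.9 kb, had 2 and 5 peaks beside its 4, and covered shares of 3.51% and 6.52%. The 2 neighbours of Sycp3, Spo11, Terb1 and Mdc1 had none. With intervals counted as listed, Sycp2 and Sun1 had more peaks than either neighbour, and Stag3 lay between its neighbours. The members, unlike the neighbours, were picked with earlier results of these data known, so nothing is read from this order.

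**Figure D3:**
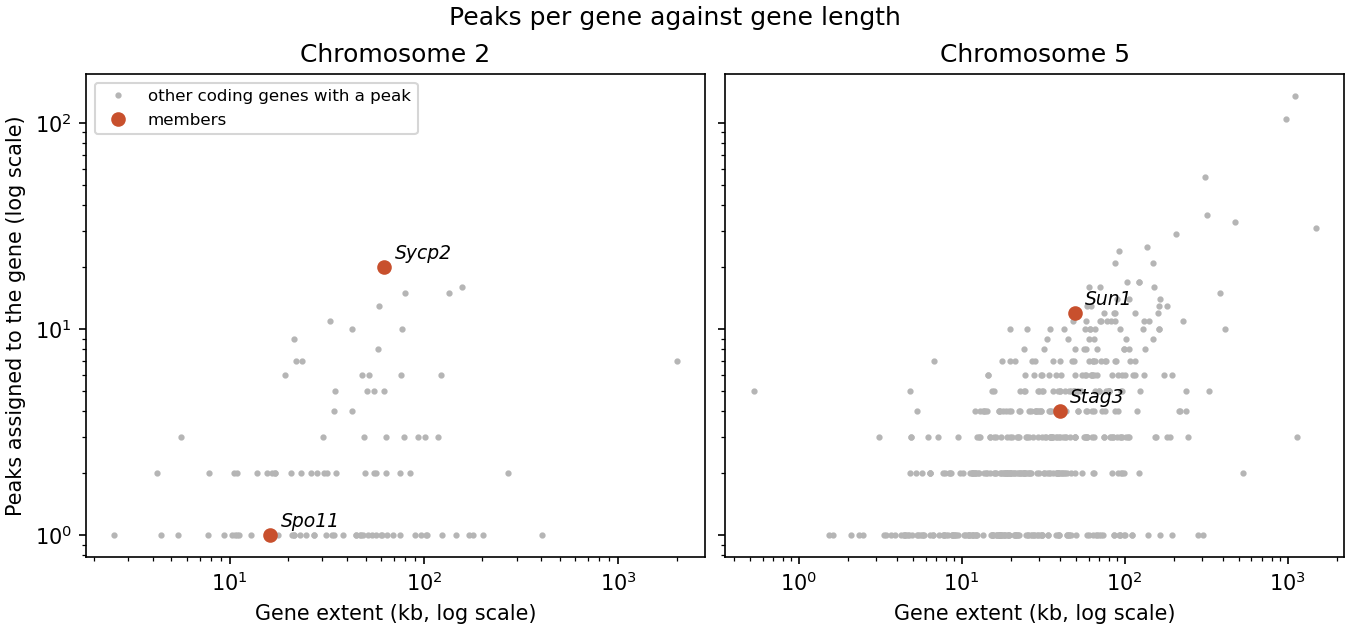
Each grey point is a coding gene with a peak on chromosome 2 (left) or 5 (right), with gene extent in kb and number of peaks, both on log scales, and members are in red. With intervals counted as listed Sycp2, with 20 peaks, is the highest point of chromosome 2, which does not hold once intervals within 1 kb are merged, whereas Sun1 (12) and Stag3 (4) have genes above them at similar lengths.

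The promoters of 7 of the 8 genes are in the RefSeq table, in 8 windows of 300 bases. They were searched for short motifs of factors that act in germ cells. Spo11 has no window, so it was not searched, and its strand is not known here. TTCCCGC, letters recognised by E2F proteins, stood on either strand in the windows of 3 members, Sycp3, Stag3 and Mdc1, and in 4.6% of all 32851 windows. E2F6, a repressor of this family, is known to keep Stag3 silent in somatic cells. The windows of Sycp3, Stag3 and Mdc1 were 57%, 61.3% and 59.7% G and C, above the median of 52.7% over all windows. The letters TTCCCGC are themselves mostly G and C, so the share over all windows is not a like background. AACTG, the core of sites for MYB proteins such as MYBL1, stood in the windows of 4 members (Sycp2, Stag3, Mdc1 and Hspa2) and in 44.8% of all windows. TGACGTCA, the cyclic AMP response element, stood in none and in 1.79% of all windows. No match overlapped a match of another motif. A match is a description of the sequence, and the peak list holds no signal at these promoters.

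The 3 windows with the E2F letters are shown from 160 bases before the start to 25 after it, with the matches, or their reverse complement, in capitals. They lie at chr10:88459427-88459611, chr5:138280349-138280533 and chr17:35841338-35841522, all on the forward strand of GRCm38.p6.
Sycp3: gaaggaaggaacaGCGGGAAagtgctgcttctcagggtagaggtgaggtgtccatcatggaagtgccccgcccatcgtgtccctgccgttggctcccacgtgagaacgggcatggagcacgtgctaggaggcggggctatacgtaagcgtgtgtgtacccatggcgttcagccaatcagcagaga
Stag3: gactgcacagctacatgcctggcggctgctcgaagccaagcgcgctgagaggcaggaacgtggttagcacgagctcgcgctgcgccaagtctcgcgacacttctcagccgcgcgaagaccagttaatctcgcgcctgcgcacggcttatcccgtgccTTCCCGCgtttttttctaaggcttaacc
Mdc1: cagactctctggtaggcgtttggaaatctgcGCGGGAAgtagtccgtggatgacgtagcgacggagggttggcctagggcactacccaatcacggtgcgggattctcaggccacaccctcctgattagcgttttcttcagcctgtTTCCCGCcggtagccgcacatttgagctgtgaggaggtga
The match begins 147 bases before the start in Sycp3, 3 before it in Stag3, where it spans the start, and 129 and 15 before it in Mdc1.

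Other genes of the same processes were taken from 6 lists of 47 genes, of which 28 lie on chromosomes with peaks. Of these 28, 10 had a peak (35.7%, Wilson 95% interval 20.7% to 54.2%). On well covered chromosomes, those with peaks in 10% or more of their coding genes, 8 of 10 had one, beside a background of 35.7% there. On the other, thinly covered chromosomes it was 2 of 18, beside a background of 2.28%. The lists were chosen with earlier results of these data known, so nothing is read from these shares, in all or by list. The other 19 genes lie on chromosomes 3, 7, 9, 13 and 14, which have no row in the list used here and were not analysed. Whether peaks were called on them is unknown.

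For the axis and cohesin 1 of 5 scored genes had a peak. This was the X-linked cohesin subunit gene Smc1a, with 9 peaks over 72.2% of its 45.5 kb. Hormad2, Rad21l, Smc1b and Smc3, which encode an axis protein and cohesin subunits, had none and lie on thinly covered chromosomes. Of the synaptonemal complex 2 of 4 had peaks. Fkbp6 had 9 in introns, and Six6os1, a central element protein gene that the list names 4930447C04Rik, had 6 over 29.9% of its length, while Syce2 and Syce3 had none. No peak was listed for the 3 scored genes of break formation, Mei1, Prdm9 and Top6bl, or for the 5 of damage signalling. All 8 lie on thinly covered chromosomes: 11, 15, 17 and 19, where 0.0622%, 3.87%, 3.02% and 0% of coding genes had a peak. Missing peaks there say little about these 2 lists. The intervals, which take no account of the chromosome, allow shares of up to 56.1% and 43.4%.

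For telomere attachment 5 of 8 scored genes had a peak, 4 of 4 on well covered chromosomes and 1 of 4 on thinly covered ones. The backgrounds there were 35.7% and 2.28%, and given how the lists were chosen nothing is read from these counts. Spdya, an activator of CDK2 at telomeres, had 4 intron peaks over 2.24% of its length on chromosome 17. Lmnb1, a gene for the nuclear lamina, had 4 over 34.6%. Terf1, a gene for a protein that binds telomere repeats, had 3 peaks of 9635 to 15170 bp that covered 78.3% of 38.5 kb. Cdk2 had 1 exon peak, and Lmnb2, named after its values were seen, had 1 intron peak of 1000 bp. Terb2 and Majin, whose proteins form a complex with TERB1, had none, and neither had Sun2; they lie on chromosomes 2, 19 and 15. Among partners of HSPA2, 2 of 3 had a peak: Shcbp1l with 5 in introns over 34.3% of its length, and Bag6 with 1 exon peak of 200 bp. Cdk1 had none. Smc1a and Terf1 were covered over most of their length, which no member was. They lie on chromosomes X and 1, which carry no member, and the part of the chromosome in this contrast was not tested.

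**Figure D4:**
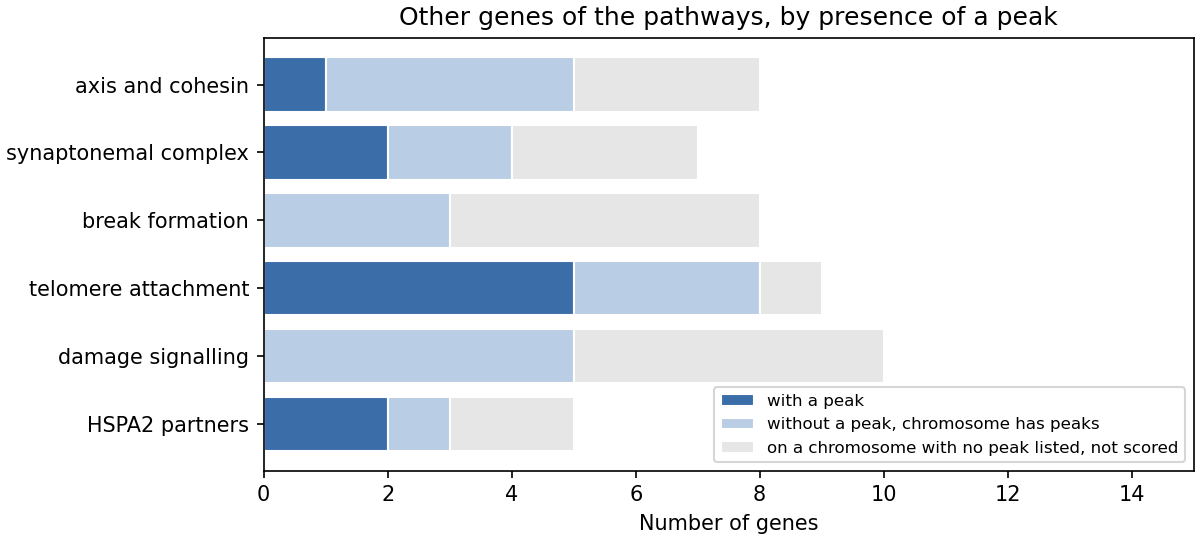
Bars give the number of genes per list with a peak, without a peak on a chromosome that has peaks, and on chromosomes not scored. Telomere attachment has 5 of 8 scored genes with a peak, 4 of 4 on well covered chromosomes and 1 of 4 on the others. The backgrounds there are 35.7% and 2.28%. The lists were chosen with earlier results of these data known, so nothing is read from the counts. Break formation (3 scored) and damage signalling (5 scored) have none, and all their scored genes lie on thinly covered chromosomes.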

How the data were processed

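The authors deposited 1 annotated peak list. Per the file headers, its values are the start and end positions of peaks, with an annotation class, transcript and gene. The submitters' processing notes name TopHat2 2.0.13, a spliced read aligner, and the mm10 build. How peaks were called, at what threshold, with what use of the input and with which gene annotation is not given in the sources used here. Running numbers reach 65288, of which 16331 have a peak in the list and 48957 do not.

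Members were matched by symbol, and other genes through symbols and synonyms, to a RefSeq gene table of GRCm38.p6 (3216 of 3258 genes in the list matched by number). Covered share is the overlap of a gene's assigned peaks with its extent, checked on simulated intervals. The background is all protein-coding genes of the chromosomes that have a peak. Members and lists were chosen with earlier results of these data known. Named were the 8 members, per list up to 4 genes with the most peaks, genes without one where 4 or fewer, and 2 length neighbours per member. Python 3.11.15, numpy 2.4.6, pandas 2.3.3, scipy 1.17.1 and matplotlib 3.10.9 were used. Peak sequences and splice sites need a genome, not used here.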

Additional observations from a re-analysis of the deposited data

How the results depend on the processing

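No paired analysis was possible because there is 1 library per group and the result comes from no test. Of 87 recomputed values, 75 stayed within 1.5 times the reported count or, for a covered share, within its 95% interval over bins, and 12 moved. That interval is wide: the covered share of Stag3 went from 2.51% to 4.51% inside it when peaks named for Gpc2 were counted. Neighbouring bins are not independent, as 1 peak can span 11 of them, so the interval serves only as a cutoff. Some of the 75 values could not move. Hspa2 has no peak, so its values were 0 in every setting, and peaks outside a gene never add to a covered share. The wider lists went from 10 of 28 genes to 8 of 10 on well covered chromosomes, a similar count but a higher share. With only peaks at or above the median width of their chromosome, 21 of the 40 peaks remained and 5 of the 8 genes had one. Stag3 was among the 5 only through its intergenic peak past the end of the gene. The covered share of Stag3, Spo11 and Terb1 fell to 0%. Merging intervals within 1 kb of each other left 23 peaks, with 8 in Sycp2, and 4 coding genes of chromosome 2 then had at least as many as Sycp2 where 0 did before, a comparison added after seeing the data. Both follow from how the settings are built. Restriction to classes inside the gene, to any peak over the extent, or to peaks at least 0.5 inside it left 7 of 8 genes with a peak. Positions are limited to bins of 200 bp on these chromosomes, and depth is unknown.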
